A study of Mus musculus with 36 samples.

Results

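The comparison described here sets pS6 immunoprecipitates from the olfactory epithelium of mice that smelled cis-3-hexenol against those of mice given no odor, over all genes, and uses 6 of the 36 libraries of the series, 3 in each group. The cis-3-hexenol group is C57BL/6J wild-type males, 8 weeks old, kept for 4 h without odor before 90 min with undiluted cis-3-hexenol, 10 µL on filter paper. The no-odor group is males of the same strain, genotype and age with the same habituation and an empty filter paper for 90 min. Octanal, at the same volume and time, and a 1:1 mixture of octanal and cis-3-hexenol come from the same batch (the OC condition) and share these no-odor libraries, and 6 further odors belong to other batches with controls of their own. The labels call the 3 libraries of a group biological replicates and do not say how many animals went into each. Of 57010 gene identifiers in the count table, 19568 passed the filter on low counts and were tested.

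Each olfactory sensory neuron of the mouse expresses a single odorant receptor gene out of a very large family, and an odorant activates the subset of neurons whose receptor binds it. Firing drives phosphorylation of ribosomal protein S6, so that an antibody to phosphorylated S6 (pS6) pulls down ribosomes, and the mRNA on them, preferentially from cells that were active. A receptor mRNA that is more abundant in the precipitate after exposure therefore marks a receptor whose neurons carried more pS6-bound message, and fewer cells of a type and less RNA per cell cannot be told apart in such bulk samples. Cis-3-hexenol, or leaf alcohol, is the unsaturated primary alcohol behind the smell of cut grass. Receptor families are given as MOR numbers from RefSeq, levels as CPM (counts scaled to the effective library size) and differences as log2 changes, cis-3-hexenol over no odor, from edgeR's quasi-likelihood test with Benjamini-Hochberg adjustment over all genes tested, called at an adjusted p under 0.05. CPM are not divided by transcript length, so levels are compared between groups and not between genes.

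Of 1107 listed receptor genes, 859 were tested, and 68 (7.92%) were called, all of them higher with cis-3-hexenol, while over all genes 5.74% were called, 2.58% higher and 3.16% lower. The median log2 change was 0.44 over the tested receptor genes and 0.05 over all genes. Under these settings edgeR called 0 receptor genes lower, although 7 were lower at an unadjusted p under 0.05. DESeq2 called 3 lower, and edgeR called 24 lower when libraries were scaled to their median receptor, 2 without a filter on low counts, 2 with only the 6 libraries and 1 without no-odor replicate 1. Of the 68, 17 lay in a chromosome 2 series that holds the families MOR233 and MOR231 (GENCODE vM21 annotation of GRCm38), and 51 lay elsewhere. The same stretch of coding sequence follows for the 4 called receptors of each family with the smallest p, taken from GENCODE vM21 transcripts. It was picked as the gap-free stretch of 90 bases with the most positions that separate these receptors by family. It therefore differs more between the families than the coding sequence as a whole. Positions 575 to 664 are shown for MOR233 and the aligned positions 572 to 661 for MOR231, counted from 1 at the start codon. Capitals mark the 16 of 90 positions at which all 4 MOR233 receptors carry 1 base and all 4 MOR231 receptors another; over the whole coding sequence there are 81 such positions among 915 aligned without a gap. The first 4 are MOR233 and the last 4 MOR231.
Olfr1215: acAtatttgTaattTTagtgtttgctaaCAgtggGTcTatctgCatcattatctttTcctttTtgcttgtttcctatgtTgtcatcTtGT
Olfr1226: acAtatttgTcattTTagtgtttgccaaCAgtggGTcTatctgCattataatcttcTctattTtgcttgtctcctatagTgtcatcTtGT
Olfr1225: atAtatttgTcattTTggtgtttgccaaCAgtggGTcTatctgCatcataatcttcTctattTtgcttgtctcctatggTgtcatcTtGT
Olfr1214: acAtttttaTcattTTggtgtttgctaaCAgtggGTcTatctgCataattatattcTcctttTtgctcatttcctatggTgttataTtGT
Olfr1240: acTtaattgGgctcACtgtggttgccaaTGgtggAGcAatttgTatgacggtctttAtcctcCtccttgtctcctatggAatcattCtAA
Olfr1243: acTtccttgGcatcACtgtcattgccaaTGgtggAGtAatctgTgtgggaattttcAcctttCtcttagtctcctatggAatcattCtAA
Olfr1242: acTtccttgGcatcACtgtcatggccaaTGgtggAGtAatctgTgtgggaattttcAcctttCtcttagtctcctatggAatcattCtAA
Olfr1238: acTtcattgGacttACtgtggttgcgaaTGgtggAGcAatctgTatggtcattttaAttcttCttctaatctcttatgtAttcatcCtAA

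Coding sequences of called receptors were 80.3% to 89.3% identical within MOR233 (6 pairs) and 67.3% to 92.6% within MOR231 (21 pairs), against 59.5% to 63.8% between the families (28 pairs). Pairs of a called and a not called receptor spanned about the same range, 78.0% to 90.5% within MOR233 and 67.6% to 93.9% within MOR231. Close relatives did not always share a call. Olfr1253, called at a log2 change of 1.46, is 93.9% identical to Olfr1251, which was at 0.01 and was not called. Olfr1226, at 2.78, is 90.5% identical to Olfr1228, at 0.17. Expected counts divide a read that fits several genes, so values of such relatives are not fully separate. At least 95% identity over 200 bases to another receptor transcript was found for 18 of the 68 called receptors (26.5%) and for 279 of the 859 tested (32.5%). Among the called ones, Olfr1238, Olfr90 and Olfr338 share such stretches with each other although their families differ. Olfr467 shares one with Olfr471.

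Olfr1215 (MOR233-13) had the smallest p of all receptors. It stood at 20.3, 12.4 and 10.7 CPM in the cis-3-hexenol libraries, against 0.496, 0.827 and 0.656 CPM in the no-odor libraries. Every exposed library lay far above every unexposed one, and the log2 change was 4.45 (SE 0.32, adjusted p 4.33e-06). Olfr1226, another MOR233 gene of the chromosome 2 series, had 138, 80.5 and 67.5 CPM with cis-3-hexenol and 14.3, 15 and 12.4 CPM with no odor (log2 change 2.78, SE 0.24, adjusted p 1.17e-05). Olfr1225 had 9.81, 6.16 and 7.72 CPM with cis-3-hexenol and 0.694, 1.00 and 0.984 CPM with no odor (log2 change 3.14, SE 0.34, adjusted p 0.000114). The groups did not overlap for any of these, and replicate 1 of the exposed group was the highest library for each. Genes are named here, unless marked, among those whose groups do not overlap. Non-overlap of a named gene is therefore not a separate result. Olfr1214, the remaining called MOR233 gene, was higher by a log2 change of 2.26. Of 15 tested MOR233 receptors these 4 were called, and the family's changes ran from -0.45 to 4.45 with a median of 0.32, so the family did not move as a block.

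MOR231 held the largest number of called receptors of any family, 7 of 13 tested, with a median log2 change of 1.07. Olfr1240 had 111, 105 and 80.0 CPM with cis-3-hexenol and 3.32, 5.26 and 3.94 CPM with no odor (log2 change 4.57, SE 0.36, adjusted p 4.78e-06). Olfr1243 had 56.9, 33.9 and 32.4 CPM with cis-3-hexenol and 1.49, 3.60 and 3.41 CPM with no odor (log2 change 3.88, SE 0.38, adjusted p 4.04e-05). Olfr1242, which is 92.6% identical to Olfr1243 in its coding sequence, had 57.4, 38.4 and 29.2 CPM with cis-3-hexenol and 2.63, 5.61 and 5.18 CPM with no odor (log2 change 3.23, SE 0.38). For both genes of this close pair no exposed library came near an unexposed one. Olfr1238 had 18.3, 11.6 and 9.05 CPM with cis-3-hexenol and 2.08, 2.30 and 1.71 CPM with no odor (log2 change 2.67, SE 0.32). Olfr1256, Olfr1253 and Olfr1254 were higher by 2.07, 1.46 and 1.07. The other 6 tested members lay between -0.35 and 0.29.

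Read in genome order, the chromosome 2 series from Olfr1189 to Olfr1265 held 64 receptor genes besides pseudogenes, of which 60 were tested and 17 called (28.3%), against 51 of 799 tested receptors elsewhere (6.38%). The ends of this series were set after its values had been seen, and the difference between the shares was therefore not tested. The called genes were scattered among uncalled ones, for example Olfr1215 between Olfr1214 (called, 2.26) and Olfr1216 (-0.06, not called). Over all of chromosome 2, 30 of 225 tested receptors were called (13.3%), against 7.92% of all tested receptors. Chromosome 7 followed in number with 12 of 181, a lower share of 6.63%. The share was higher on chromosome 1 (4 of 24, 16.7%) and on chromosome 15 (2 of 6, 33.3%), where few receptors were tested.

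**Figure D1:**
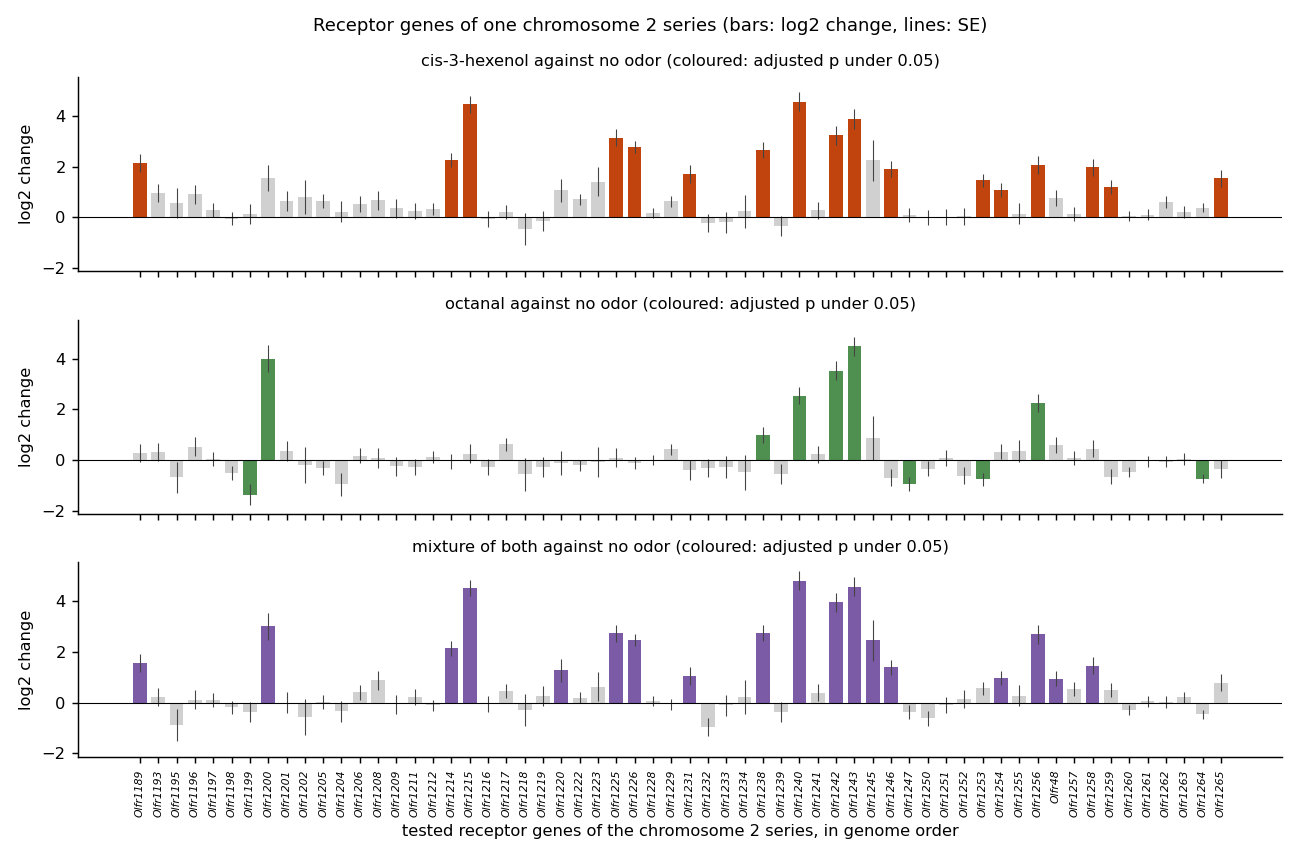
Log2 change (bars) and its SE (lines) for the 60 tested receptor genes from Olfr1189 to Olfr1265 in genome order, with cis-3-hexenol (top), octanal (middle) and their mixture (bottom), each against the same no-odor libraries; coloured bars have an adjusted p under 0.05, which 17.9% of all genes reached upward with octanal and 17.7% with the mixture. Olfr1215, Olfr1225 and Olfr1226 stand high in the top and bottom panels and near 0 with octanal, while Olfr1242 and Olfr1243 are high in all 3.

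A second group of called receptors came from MOR204, a family on chromosome 7, with 5 of 19 tested. Olfr467 had 14.2, 10.2 and 14.4 CPM with cis-3-hexenol and 0, 0.709 and 0.394 CPM with no odor, and its log2 change of 5.18 (SE 0.52, adjusted p 5.29e-05) was the largest among receptors detected in any unexposed library. Olfr476 had 8.44, 9.45 and 6.92 CPM with cis-3-hexenol and 0.694, 1.48 and 0.590 CPM with no odor (log2 change 3.16, SE 0.29, adjusted p 1.91e-05). Olfr502 had 6.27, 2.92 and 3.83 CPM with cis-3-hexenol and 0.347, 0.531 and 0.459 CPM with no odor (log2 change 3.27, SE 0.38, adjusted p 0.000191). All 3 genes were near the detection limit without odor and clearly present after exposure, with no overlap between groups, as the rule for naming genes requires. Olfr477, which shares a near-identical stretch with Olfr476, and Olfr491 were higher by 1.55 and 1.06.

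The remaining receptors with the smallest p came from 6 other families. Olfr1110 (MOR172-4) had 196, 78.8 and 85.7 CPM with cis-3-hexenol and 5.90, 8.62 and 6.43 CPM with no odor (log2 change 4.10, SE 0.46, adjusted p 0.000142). Olfr124 (MOR256-3) had 120, 94.4 and 81.5 CPM with cis-3-hexenol and 12.7, 14.6 and 15 CPM with no odor (log2 change 2.81, SE 0.22, adjusted p 4.33e-06). Olfr398 (MOR157-1) had 42.2, 36.4 and 29.5 CPM with cis-3-hexenol and 5.06, 6.02 and 3.41 CPM with no odor (log2 change 2.89, SE 0.22, adjusted p 4.33e-06). In each the lowest exposed library lay well above the highest unexposed one. Olfr342 (MOR136-4) had 23.2, 11.4 and 11.8 CPM with cis-3-hexenol and 1.09, 0.709 and 1.44 CPM with no odor (log2 change 3.84, SE 0.36). Olfr281 (MOR160-5) had 76.5, 38.8 and 43.6 CPM with cis-3-hexenol and 13.6, 11 and 11.9 CPM with no odor (log2 change 2.12, SE 0.27). Olfr414 (MOR103-10) had 37.8, 34.0 and 32.3 CPM with cis-3-hexenol and 8.97, 13.3 and 11.6 CPM with no odor, the smallest change of the 16 receptors with the smallest p (log2 change 1.62, SE 0.19), with replicates that lay close together. Other receptors called with a change above 2 included Olfr183 (2.97), Olfr212 (2.67), Olfr745 (2.51), Olfr1362 (2.30), Olfr30 (2.26) and Olfr1463 (2.22).

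**Figure D2:**
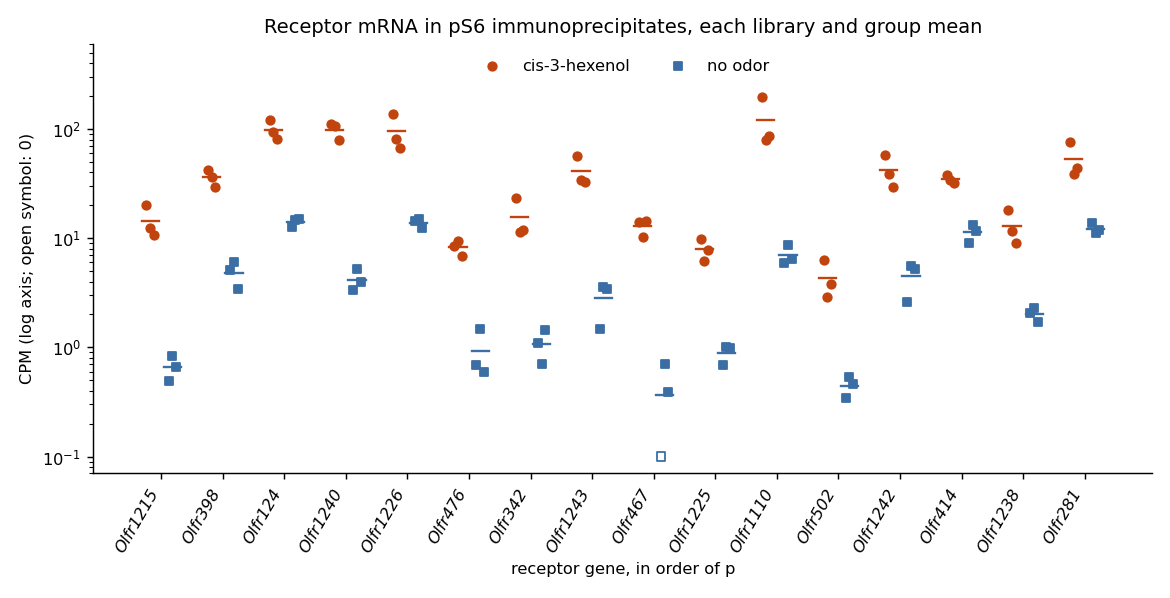
CPM on a log axis for the 16 receptor genes with the smallest p, each library as a point (cis-3-hexenol left, no odor right) and the mean of 3 libraries as a line; the open symbol is a library at 0. For every gene the 3 exposed libraries lie above the 3 unexposed ones, with means of 34.7 against 11.3 CPM for Olfr414, the smallest log2 change, and of 12.9 against 0.367 CPM for Olfr467, the largest.

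Olfr1451 (MOR202-1) was the only called receptor with no count in any no-odor library: it had 22, 25 and 9 counts in the cis-3-hexenol libraries and 0, 0 and 0 in the no-odor libraries. Against a floor of 3 counts over the no-odor group its abundance was at least 16.7-fold higher (adjusted p 0.0130). The other 67 called receptors had log2 changes of 0.79 to 5.18. Of the 68, 64 had a change of at least 1, 39 of at least 2 and 13 of at least 3. In 67 of the 68 the libraries of the groups did not overlap, which being called on the same libraries makes likely. Among all 859 tested receptors 220 did not overlap in the upward direction and 11 in the downward direction. For all tested genes the shares were 16.8% and 14%. Exposed replicate 1 was the highest library for 52 of the 68, and its level was in the median 1.47 times the mean of the other exposed replicates. Without it 45 receptors were called.

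**Figure D3:**
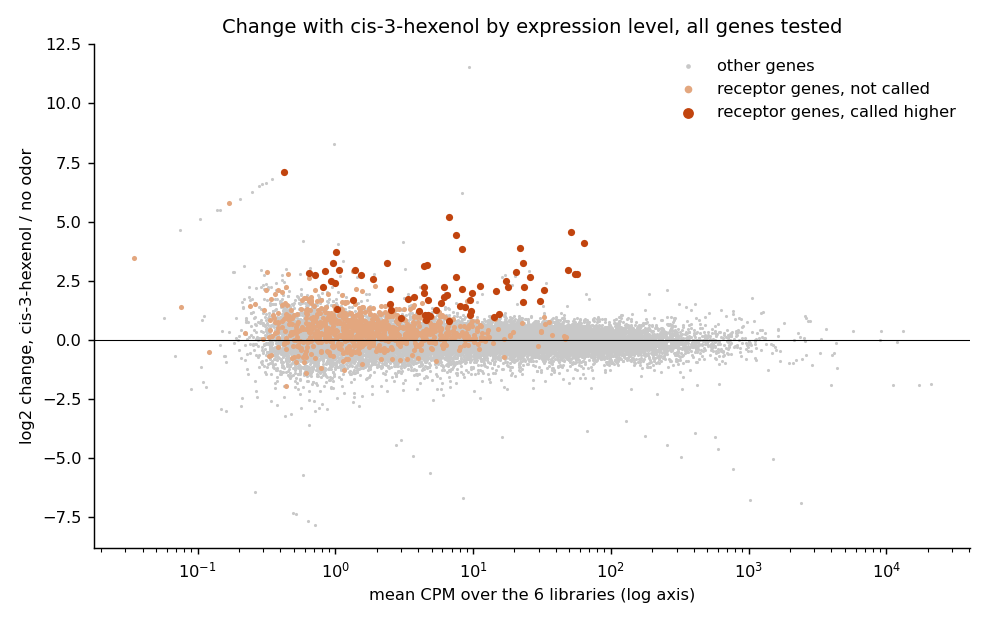
Log2 change, cis-3-hexenol over no odor, against mean CPM over the 6 libraries (log axis) for the 19568 tested genes, with the 68 called receptor genes in dark orange, the 791 other tested receptor genes in light orange and other genes in grey. Called receptors lie above the cloud over a wide range of levels, and no receptor is called below 0.

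Members just inside the threshold were Olfr1254 (1.07), Olfr491 (1.06), Olfr654 (2.74) and Olfr1099 (1.01), and just outside it Olfr1297 (0.78), Olfr1269 (2.28), Olfr171 (0.88) and Olfr463 (1.66). Class I receptors, the ancestral group shared with fish, had 2 called of 97 tested, Olfr654 and Olfr668 (2.23), at a median log2 change of 0.73, and class II receptors had 64 of 745 at a median of 0.41. The class I median lay above that of class II although fewer were called. Receptor pseudogenes named with -ps, which are outside the 859, had 5 of 42 called, all higher. Of 203 MOR families with a tested receptor, 38 held a called one and 12 held 2 or more. MOR260 had 4 of 6 tested called (Olfr707, Olfr702, Olfr710 and Olfr716, at 2.17, 2.74, 1.70 and 0.95), MOR172 had 3 of 5 and MOR256 had 5 of 42. Trace amine-associated receptors, a separate chemoreceptor family of the same epithelium, had 0 of 7 tested called by edgeR, with 1 higher at an unadjusted p under 0.05. Over all 1107 receptor genes the share of counts was 0.447% ± 0.0283 with cis-3-hexenol and 0.243% ± 0.0229 with no odor (SD, n = 3 each). The shares did not overlap, and the exact permutation test gave p = 0.1, the smallest p that 3 against 3 allows, two-sided.

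How these receptors behaved with octanal, an aliphatic aldehyde, shows which of them separate the odorants. Cis-3-hexenol was set directly against octanal in the same fit. Among the 859 tested receptors 104 were higher and 137 lower with cis-3-hexenol than with octanal, and over all genes 8.98% were higher and 12% lower. Of the 68 receptors called against no odor, 28 were higher and 16 lower than with octanal and 24 were called neither way; these 68 were chosen on the cis-3-hexenol libraries that the contrast also uses. The 6 higher receptors with the smallest p were Olfr1215, Olfr1226, Olfr281, Olfr467, Olfr1225 and Olfr1253, with log2 differences of 4.21, 2.89, 2.94, 4.50, 3.06 and 2.22. Olfr1215 had 20.3, 12.4 and 10.7 CPM with cis-3-hexenol, 0.751, 0.768 and 0.811 CPM with octanal and 0.496, 0.827 and 0.656 CPM with no odor (cis-3-hexenol minus octanal, adjusted p 4.51e-07). Its octanal libraries lay within the range of the unexposed ones. Olfr281 had 76.5, 38.8 and 43.6 CPM with cis-3-hexenol and 5.56, 4.96 and 10.2 CPM with octanal, where all 3 octanal libraries were below the no-odor range (cis-3-hexenol minus octanal, SE 0.28, adjusted p 9.02e-06). Olfr1240 was high with both odorants, at 111, 105 and 80.0 CPM with cis-3-hexenol and 41.3, 19.0 and 12.1 CPM with octanal, and differed between them by 2.03 (SE 0.31).

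In the chromosome 2 series, whose ends were chosen on the same cis-3-hexenol libraries, 19 of 60 tested receptors were higher and 1 was lower with cis-3-hexenol than with octanal, beside 104 higher and 137 lower of all 859. The median log2 change against no odor was 0.62 with cis-3-hexenol and -0.06 with octanal. All 4 called MOR233 receptors were among those higher than with octanal. Of the MOR231 receptors, Olfr1243 and Olfr1242 did not pass the test against octanal, with differences of -0.60 (SE 0.31) and -0.29 (SE 0.33). Olfr398 and Olfr124 likewise differed by -0.22 (SE 0.19) and -0.21 (SE 0.20) and were not called, at levels of 51.5, 39.1 and 35.3 CPM and of 96.7, 95 and 151 CPM with octanal. The 6 receptors lower with cis-3-hexenol than with octanal with the smallest p were Olfr332, Olfr1368, Olfr1383, Olfr716, Olfr370 and Olfr455. Olfr332 had 6.93, 8.96 and 7.29 CPM with cis-3-hexenol, 169, 129 and 178 CPM with octanal and 6.20, 8.44 and 6.69 CPM with no odor, a log2 difference of -4.36 from octanal (SE 0.18, adjusted p 9.49e-10). Olfr716 was called in the comparison with no odor (0.95) and was lower than with octanal by a log2 difference of -4.13 (SE 0.23).

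The mixture held cis-3-hexenol and octanal 1:1 in the same volume, so the amount of cis-3-hexenol was lower in it, and effects of the smaller amount and of the added octanal cannot be told apart. With cis-3-hexenol alone 15 receptors were higher and 116 lower than with the mixture, against 5.03% and 7.86% of all genes. Removing cis-3-hexenol replicate 2 left 83 of either direction, where all libraries gave 131. For the called MOR233 receptors the difference from the mixture was small: Olfr1215 had 20.3, 12.4 and 10.7 CPM with cis-3-hexenol and 17.9, 16 and 11.3 CPM with the mixture, a log2 difference of -0.06 (SE 0.25, not called). Olfr467 had 14.2, 10.2 and 14.4 CPM with cis-3-hexenol and 13.6, 9.59 and 7.89 CPM with the mixture (0.32, SE 0.37, not called). Of the 68 receptors 4 were higher with cis-3-hexenol alone, 16 were lower and 48 were called neither way. The 4 higher ones were Olfr281 (0.80), Olfr1253 (0.89), Olfr1294 (1.31) and Olfr1416 (1.76). Olfr1416 had 6.69, 5.09 and 5.22 CPM with cis-3-hexenol, 1.75, 1.20 and 2.05 CPM with the mixture and 3.17, 1.54 and 2.62 CPM with no odor, so its exposed libraries were the highest of the 3 groups. Olfr728, Olfr1264, Olfr1297 and Olfr358 were also among the 6 receptors higher than with the mixture with the smallest p, at 1.20, 0.84, 0.97 and 0.90. Receptors lower than with the mixture began with Olfr332 (-4.34), Olfr1383 (-5.82), Olfr1368 (-3.72), Olfr479 (-4.31), Olfr370 (-3.34) and Olfr716 (-3.92).

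The 4 other odors looked at were acetophenone, decanal and the floral and mint fragrances. They belong to batches with their own no-odor libraries, so no library is shared with the comparison here and the comparison crosses batches. With acetophenone 14 of the 66 cis-3-hexenol receptors that were tested there were higher (21.2%) and 2 lower, against 12.7% higher among all tested receptors and 4.22% higher and 1.27% lower among all genes, and they made up 12.7% of the 110 receptors higher with acetophenone. With decanal 3 of 66 were higher and 11 lower, against 66 and 58 of 868 tested receptors and 10.8% and 11.5% of all genes. With the floral fragrance 18 of 64 were higher (28.1%) and 0 lower, against 9.68% higher among tested receptors and 8.70% higher and 5.35% lower among all genes, and these were 22% of its 82 higher receptors. With the mint fragrance 19 of 64 were higher and 1 lower (29.7% higher), against 12.8% higher among tested receptors and 7.10% higher and 4.07% lower among all genes, and these were 17.6% of its 108 higher receptors. Among the 68, 36 were called higher in none of these 4 comparisons, 17 in 1, 8 in 2, 7 in 3 and 0 in 4. Of the 68, 5 were not tested with at least 1 of these odors, and 4 of those are among the 36.

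Single receptors differed in breadth. Olfr476 was higher with acetophenone, floral and mint at log2 changes of 2.54, 2.82 and 2.61, and Olfr502 at 3.43, 2.71 and 2.43. Olfr1110 was higher by 1.08, 3.54 and 2.01 with the same odors. Olfr281 was higher with mint at 3.15 (SE 0.23) and at -0.45 (SE 0.23) with floral, where it was not called, and Olfr183 was higher with mint at 4.63. Olfr1254 was higher with decanal at 3.96, and Olfr716 at 4.72. The MOR233 receptors Olfr1215, Olfr1225 and Olfr1214 were called higher in none of the 4 comparisons, with log2 changes between -1.04 and 0.69. The fourth, Olfr1226, was lower with decanal (-0.93, SE 0.21) and mint (-0.43, SE 0.12).

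**Figure D4:**
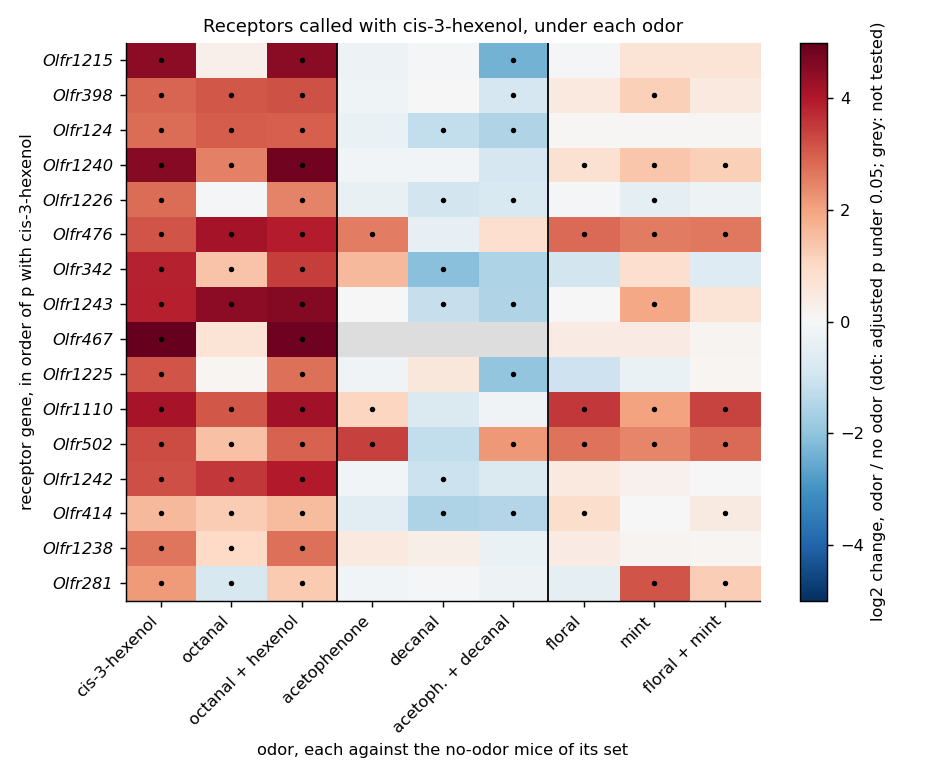
Log2 change of the 16 receptors with the smallest p (rows) under each of the 9 odors (columns), every odor against the no-odor libraries of its own set, with sets divided by black lines; dots mark an adjusted p under 0.05 and grey cells were not tested. Olfr476 and Olfr502 are red across several odors, while Olfr1215 and Olfr1226 are called higher only with cis-3-hexenol and the octanal-hexenol mixture.

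Genes of the signalling machinery of sensory neurons were also higher. In the list of olfactory transduction and mature sensory neuron genes 13 of 19 tested were higher and 0 lower by edgeR (15 and 0 at an unadjusted p under 0.05), at a median log2 change of 0.85. Beside this and the lists that follow stand the shares over all 19568 tested genes, 2.58% called higher and 3.16% lower. At an unadjusted p under 0.05, 2373 of all tested genes were higher and 2017 lower. Adcy3, Cnga2, Cnga4, Cngb1, Gnal, Ano2, Stoml3 and Carns1 were among the 13. The 4 with the smallest p were Gfy, a Golgi protein needed for olfactory signalling, Ric8b, a chaperone and exchange factor of the olfactory G protein, Pde1c, the ciliary phosphodiesterase, and Rtp2, a receptor transport protein. Gfy had 720, 602 and 611 CPM with cis-3-hexenol and 287, 386 and 305 CPM with no odor (log2 change 0.98, SE 0.19, adjusted p 0.00943). Ric8b had 630, 487 and 514 CPM with cis-3-hexenol and 266, 283 and 295 CPM with no odor (log2 change 0.95, SE 0.19). Every exposed library lay above every unexposed one for these genes. Omp, the marker of mature sensory neurons, was not called, at 7707, 6316 and 5201 CPM with cis-3-hexenol and 4174, 5099 and 5697 CPM with no odor (0.36, SE 0.19), and its groups overlapped. With a single library left out the count of 13 ran from 1 to 5: removing cis-3-hexenol replicate 1, 2 or 3 left 4, 2 or 5, and removing no-odor replicate 1, 2 or 3 left 2, 3 or 1.

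Scaling decides part of this picture. Scaling every library to its median tested receptor gene shifted the median of all genes to -0.46 and that of receptors to -0.03, against 0.05 and 0.44 under TMM scaling. Under it the transduction, termination, receptor choice and synaptic lists had 0 members called higher, the effector, axon sorting and immediate early lists 1 each, and the nuclear oxidative phosphorylation and ribosomal protein lists 66 and 33 called lower, whereas 83 receptors were still called, 59 higher and 24 lower. All changes, those of receptors included, are therefore relative to the bulk of all genes, as TMM sets it. Of the 68 receptors called under TMM scaling, 54 were still called with receptor scaling.

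Genes known to follow neuronal activity were partly called. Immediate early genes are induced by firing, and many of them encode transcription factors. Of these, 3 of 24 were higher and 0 lower by edgeR (8 and 4 at an unadjusted p under 0.05), at a median of 0.25. Nr4a1, an orphan nuclear receptor, had 154, 65.4 and 93.9 CPM with cis-3-hexenol and 52.2, 11.6 and 16.7 CPM with no odor (log2 change 1.95, SE 0.46, adjusted p 0.0249). Fosb had 13.2, 7.31 and 9.79 CPM with cis-3-hexenol and 5.01, 1.36 and 0.919 CPM with no odor (2.00, SE 0.53), and Maff was higher by 0.87. In both groups replicate 1 was the highest library for these genes. Fos was not called, at 47.0, 25.4 and 65.1 CPM with cis-3-hexenol and 60.3, 25.5 and 24.7 CPM with no odor (0.31, SE 0.31). The count of 3 was 0 without no-odor replicate 2 or 3 or cis-3-hexenol replicate 1, and 1 without cis-3-hexenol replicate 3. Of activity-dependent effectors 5 of 16 were higher and 0 lower, with Lrrc3b, a leucine-rich repeat membrane protein, at 449, 236 and 224 CPM with cis-3-hexenol and 83.7, 65.8 and 85.0 CPM with no odor (1.95, SE 0.25, adjusted p 0.000509). Kirrel2, an adhesion molecule of axon sorting whose level follows activity, was higher by 1.39, Pcsk1 by 1.45 and Pcp4l1 by 0.81. The effector count of 5 was 2 without no-odor replicate 2 or 3 and 3 without replicate 1 of either group or cis-3-hexenol replicate 2.

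Axon sorting genes had 4 of 14 higher and 0 lower: Pcdh10, Kirrel2, Kirrel3 and Cntn4, at 2.43, 1.39, 0.97 and 0.67. Pcdh10, a protocadherin, had 68.6, 53.5 and 48.4 CPM with cis-3-hexenol and 18.1, 6.91 and 6.36 CPM with no odor, without overlap (SE 0.36, adjusted p 0.00196). Synaptic and secretory vesicle genes had 5 of 19 higher and 0 lower, among them Scg3 (0.77), Slc17a6 (0.69) and Chga (0.84). Response termination genes had 2 of 10 higher (Pde1c and Pde4a, 0.87 and 0.83). The list for receptor choice, which also holds receptor transport proteins, had 2 of 12 (Ebf4 and Rtp2, 0.86 and 0.85). The lists overlap: Pde1c and Rtp2 are also in the transduction list, and Kirrel2 is in both the effector and the axon sorting list. Immature sensory neuron genes had 0 of 12 called by edgeR, with 2 higher and 3 lower at an unadjusted p under 0.05. Without no-odor replicate 3 the synaptic count of 5 was 1, and without no-odor replicate 1 or cis-3-hexenol replicate 2 it was 2; the termination count of 2 was 0 without no-odor replicate 2 or 3 or cis-3-hexenol replicate 2, and the receptor choice count of 2 was 0 without no-odor replicate 3. Outside the lists, the genes higher with the smallest p were Kcng1, a modifier subunit of voltage-gated potassium channels (2.7, SE 0.29, adjusted p 0.000118), Heg1 (1.42), Ss18l1, a calcium-responsive transactivator (1.34), Vsnl1, a neuronal calcium sensor (0.89), Kcnmb3, a subunit of calcium-activated potassium channels (1.42), Gadl1 (0.93), Cmip (1.16) and Pkia, an inhibitor of protein kinase A (0.99). Kcng1 had 47.2, 28.1 and 29.9 CPM with cis-3-hexenol and 6.64, 4.66 and 4.79 CPM with no odor. The groups did not overlap.

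Most red blood cell genes were lower with cis-3-hexenol, and smaller parts of the lists for other cells of blood, marrow and bone were. Red blood cell genes had 16 of 19 tested lower and 0 higher, at a median log2 change of -1.43, and their summed level was 19908 to 28502 CPM with cis-3-hexenol and 78912 to 93545 CPM with no odor. Hbb-bt, an adult beta globin, had 1258, 1570 and 2118 CPM with cis-3-hexenol and 5601, 6955 and 6184 CPM with no odor (-1.92, SE 0.33). Rhd, a Rhesus blood group protein, had 11.1, 8.96 and 12.2 CPM with cis-3-hexenol and 46.1, 38.1 and 46.6 CPM with no odor (-2.02, SE 0.23, adjusted p 0.000191). The groups were apart by a wide margin, and the count of 16 ran from 8 to 13 when a single library was removed. Removing cis-3-hexenol replicate 1 or 2 left 10 or 8, and removing no-odor replicate 1 or 3 left 10 or 9. Neutrophil genes had 5 of 17 lower, megakaryocyte genes 3 of 9, macrophage genes 4 of 11 and bone and osteoclast genes 7 of 19, with none higher. Bglap2, which encodes osteocalcin, was lower by a log2 change of -1.90, the osteoclast genes Acp5 and Ctsk by -1.34 and -1.28, and Aif1 of macrophages by -1.28. Lymphocyte, endothelium and fibroblast lists had 0 called by edgeR, with 4 of 12, 2 of 8 and 0 of 8 lower at an unadjusted p under 0.05.

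These markers moved opposite to the neuronal genes between the same libraries, and their part in the higher neuronal and receptor levels was not tested. The summed level of the transduction list was 13898 to 18814 CPM with cis-3-hexenol and 9296 to 11905 CPM with no odor. That of the bone list was 4189 to 5167 CPM and 7925 to 12070 CPM in the same order of groups. With octanal and the mixture the transduction list was higher still, at 23533 to 33735 and 26404 to 29546 CPM. The bone list stood at 2362 to 5759 and 2693 to 3241 CPM there, also below no odor. The neutrophil count of 5 became 0 when no-odor replicate 3 or cis-3-hexenol replicate 2 or 3 was removed, 1 when cis-3-hexenol replicate 1 was, and 3 or 2 when no-odor replicate 1 or 2 was. The megakaryocyte calls were 0 without any of the 6 libraries but no-odor replicate 1, where 1 was left. The bone calls were 4 without no-odor replicate 1 or 3 or cis-3-hexenol replicate 2 or 3. The macrophage calls were 1 without no-odor replicate 1 or 2 or cis-3-hexenol replicate 2 or 3.

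Among cells of the epithelium itself, globose basal cell genes, which mark the dividing progenitors, had 3 of 10 lower (Cdk1, Hes6 and Mki67, at -0.84, -0.97 and -1.08) and 0 higher, and 1 was left without cis-3-hexenol replicate 3. Horizontal basal cells had 1 of 8 lower (Krt15, -2.53) and non-canonical sensory neurons 1 of 9 (Car2, -0.93). The 8 other members of the non-canonical list were not called, and Gucy2d among them was at -0.04. At an unadjusted p under 0.05, 4 of these 9 were lower and 0 higher, so the call concerns Car2 and not the list. Sustentacular cells, the glia-like support cells, had 0 of 13 called by edgeR, with 1 higher and 0 lower at an unadjusted p under 0.05, and Cyp2g1 had 390, 355 and 446 CPM with cis-3-hexenol and 274, 360 and 338 CPM with no odor. Ensheathing glia had 0 of 11 called, with 1 lower at an unadjusted p under 0.05. Krt5 of horizontal basal cells had 14.8, 16.4 and 17.5 CPM with cis-3-hexenol and 16.4, 19.7 and 14.2 CPM with no odor, so the defining markers of the labelled tissue, Omp, Cyp2g1 and Krt5, were all present. These 3 and the genes Fos, Adh7 and Gucy2d were chosen after their values were seen. Enzymes that could act on an inhaled alcohol showed no call: 0 of 15 alcohol and aldehyde oxidation genes by edgeR, with 1 higher and 2 lower at an unadjusted p under 0.05 and a median of -0.20. Adh7 had 28.6, 19.8 and 30.6 CPM with cis-3-hexenol and 30.5, 25.3 and 34.8 CPM with no odor. In the cytochrome P450 and conjugation list 1 of 20 was lower, the glutathione transferase Gstp1 (-0.85). Heat shock and integrated stress response lists had 0 of 13 and 0 of 11 called by edgeR, with 3 and 1 at an unadjusted p under 0.05, and interferon-stimulated genes had 3 of 16 lower (Isg15, Rsad2 and Bst2, at -1.82, -1.37 and -1.16) and Ifit1 higher (0.58). Beside 2.58% higher and 3.16% lower of all genes, motile cilia and microvillar cell lists had 1 higher and 1 lower each, of 18 and of 10 tested. Each of the single calls in these lists was lost when some library was left out, except that of Car2.

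**Figure D5:**
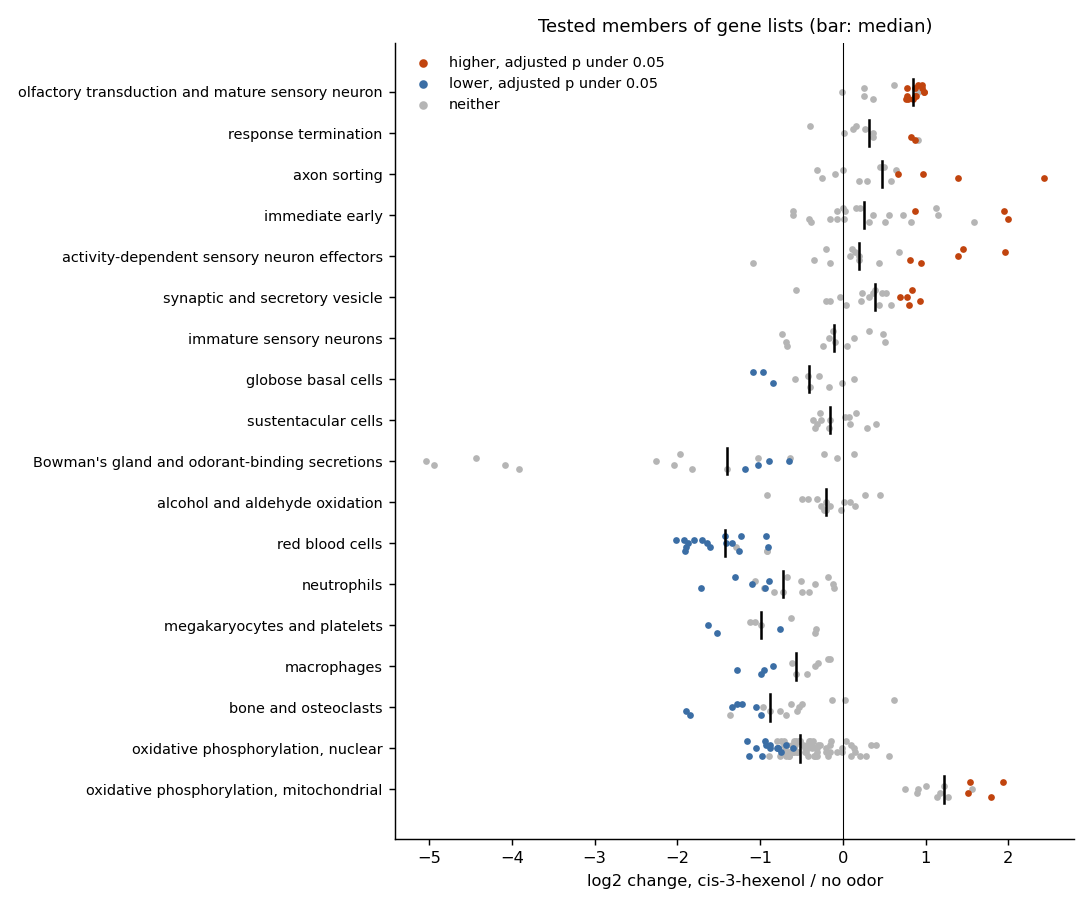
Log2 change, cis-3-hexenol over no odor, of each tested member (points) of 18 gene lists, with the list's median as a black bar; orange points were called higher, blue points lower and grey points neither way. The transduction list lies to the right of 0 with a median of 0.85, and the red blood cell list to the left with a median of -1.43.

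Most respiratory chain genes were not called, although most nuclear ones were lower at an unadjusted p under 0.05. Nuclear genes of oxidative phosphorylation had 14 of 79 tested lower and 0 higher by edgeR, at a median of -0.52. At an unadjusted p under 0.05, 47 were lower and 3 higher. Atp5g1 was at -0.88, Ndufs5 at -0.98, Uqcr11 at -1.13 and Cox8b at -1.05. Mitochondrially encoded genes had 4 of 13 higher and 0 lower by edgeR (9 and 0 at an unadjusted p under 0.05), at a median of 1.22. The gene mt-Nd2 had 239, 409 and 741 CPM with cis-3-hexenol and 161, 174 and 151 CPM with no odor (1.51, SE 0.37, adjusted p 0.0282), and mt-Atp6 had 696, 1296 and 2935 CPM with cis-3-hexenol and 476, 510 and 434 CPM with no odor (1.79, SE 0.49). The exposed libraries were spread over a wide range and replicate 3 was the highest. The 4 calls became 6 without cis-3-hexenol replicate 1 and 0 without any other of the 6 libraries. The 14 nuclear calls became 0 without cis-3-hexenol replicate 2 or 3, and 7, 3 and 4 without no-odor replicates 1, 2 and 3 and 6 without cis-3-hexenol replicate 1. Cytosolic ribosomal protein genes had 3 of 82 lower, Rpl35a, Rps27l and Rpl36al, a share near the 3.16% of all genes called lower. Without cis-3-hexenol replicate 1 the count was 0. Other genes lower with the smallest p were Tent5c (-1.18), Pdzk1ip1 (-1.26), the mitochondrial translocator protein gene Tspo (-1.27), Lgals3, a galectin (-1.34), Ube2l6, an ISG15-conjugating enzyme (-1.50), the histone gene Hist1h2ap (-2.05), Tmem212 (-1.40), Ccdc153 (-1.26) and Tppp3 (-1.12). Tspo had 59.9, 53.2 and 47.2 CPM with cis-3-hexenol and 133, 123 and 130 CPM with no odor.

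Secretion genes of the nasal glands had 4 of 19 lower (Reg3g, Scgb1c1, Ltf and Bpifa1, at -1.03, -1.18, -0.89 and -0.65), at a median of -1.40. Ltf is also counted in the neutrophil list. Of the 19, 8 were high in no-odor replicate 3 alone, by the rule given next. Removing cis-3-hexenol replicate 2 left 1 of these calls, removing cis-3-hexenol replicate 3 or no-odor replicate 2 or 3 left 2, and removing replicate 1 of either group gave 6. The odorant-binding protein gene Obp2a, chosen after its values were seen, had 229, 14.6 and 25 CPM with cis-3-hexenol and 103, 354 and 8379 CPM with no odor, and it was not called (adjusted p 0.0503). Among the 6 libraries 23 genes reached at least 10 CPM and 5 times the next library in no-odor replicate 3, and Mup4 and Scgb1b27 were among the 9 of them that were called lower. In cis-3-hexenol replicate 1 there were 2 such genes, Amelx and Ambn, which encode enamel matrix proteins of teeth: Amelx had 50.0, 1.31 and 5.06 CPM with cis-3-hexenol and 0, 0 and 0 CPM with no odor. The other 4 libraries had 0 such genes. Without no-odor replicate 3 the receptor count was 54.

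Library totals were 17011696 to 21226196 counts with cis-3-hexenol and 16039587 to 19227797 counts with no odor, of which 71598 to 95721 and 37701 to 45279 fell on receptor genes. At least 10 counts were reached by 811 to 843 receptor genes with cis-3-hexenol and by 646 to 743 with no odor, so receptors of low abundance rest on few counts in the unexposed libraries.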

How the data were processed

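RNA bound to phosphorylated S6 was sequenced from the olfactory epithelium (TruSeq Stranded mRNA libraries on an Illumina instrument, per the labels). The authors deposited the expected counts (estimated counts, not normalized) per gene, 1 table per batch, as the values show. The submitters' processing notes list GRCm39, Salmon 1.10.1, STAR 2.7.10b and R 4.4.2, giving no roles, and the annotation is not given in the sources used here. Counts were rounded and tested with edgeR 4.0.16 (R 4.3.3): filterByExpr (minimum count 10, minimum total 15), TMM scaling, glmQLFit with a prior count of 0.125 and the quasi-likelihood test in 1 fit of the 4 groups of the batch, with Benjamini-Hochberg adjustment over all genes tested. CPM use TMM-scaled library sizes, and the SE is the log2 change divided by the square root of F. The fit was tested on simulated data. Of 57010 identifiers 52029 were named from GENCODE vM21 (GRCm38), and the 4981 unnamed ones held 0.470% to 0.650% of counts. Families came from RefSeq synonyms, stretches from blastn 2.17.0 and alignments from MAFFT 7.526. The p-values measure the spread between libraries, which may be partly technical. Members and gene lists were chosen with earlier results of these data known. Named genes are the 16 receptors, 10 higher and 10 lower other genes and up to 4 called members of each list with the smallest p and groups that do not overlap, and 6 receptors each way in each direct contrast; exceptions are marked. Alternatives were RLE and receptor-median scaling, no filter, a replicate block, only the 6 libraries, DESeq2 1.42.0 and leaving out each library.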

Additional observations from a re-analysis of the deposited data

How the results depend on the processing

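The count of 1123 genes called against no odor was 4681 with scaling to the median tested receptor gene (103 higher, 4578 lower), 1993 without a filter on low counts, 2180 with only the 6 libraries compared, 1997 with DESeq2 and 271 to 566 when any of the 6 libraries was left out, with the lowest count without cis-3-hexenol replicate 2. The cause was not tested, except that leaving out a library leaves fewer samples. The 68 receptors called became 128 without a filter (126 higher, 2 lower), 83 with receptor scaling, 91 with only the 6 libraries, 94 with DESeq2, 68 with RLE size factors and 45 to 57 when a library was left out. Of the 68, 38 were called under every one of the 12 alternatives, as were all of the first 16, against 29 of the 85 other named genes. Receptors called against octanal, 241, ranged from 167 to 259 and those against the mixture, 131, from 83 (without cis-3-hexenol replicate 2) to 126 when a library was left out. With the replicate number as a block, 1281 genes and 75 receptors were called, 66 of them shared with the 68, and 238 and 140 receptors against octanal and the mixture. Deviations of same-numbered libraries correlated at -0.06, 0.11 and 0.01, so the labels' numbers were not taken as pairs. None of the 68 called receptors or of these 85 other named genes changed sign under these alternatives. Further genes named in the text, such as Omp, Fos and Cyp2g1, were not part of this check. The split of calls, 504 higher and 619 lower, was 160 and 111 without cis-3-hexenol replicate 2, more genes were also higher than lower without its replicate 3, and receptor scaling moved the receptor median to -0.03. The receptor share ratio ran from 1.78 to 1.95 when a library was left out. Receptors with few counts without odor limit the precision of their log2 changes.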
